A study of Mus musculus with 12 samples.

Results

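The genes described here are made by fibroblasts and build or bind the extracellular matrix. The set was a list of 38 gene symbols: collagens, matrix glycoproteins and proteoglycans, the enzymes that cut or crosslink matrix and their inhibitors, contractile genes of myofibroblasts, and a few broadly used markers. Of the 38, 37 had at least 1 annotated probe set on the array, among 12393 genes with a probe set of their own. Fbn1 (fibrillin) was not analysed here. Each gene was represented by the probe set with the highest mean log2 signal over all arrays, chosen from 72 probe sets of the 37 genes. Members were taken by gene name.

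The study put NUP98-HOX fusion genes into mouse bone marrow cells and read their RNA on Affymetrix MOE430A arrays, to find genes that the active fusions change. The marrow came from PepC3 F1 mice treated with 5-fluorouracil at 150 mg/kg, 4 days before harvest. After 48 h of prestimulation it was cocultured for 2 days with virus producer cells that had received 4000 cGy of irradiation, from which loose and nonadherent cells were taken, and GFP+, Sca-1+, Lin- cells were sorted 24 h later. There were 12 arrays, 3 independent experiments for each of 4 groups. ND13 cells carried NUP98 fused to HOXD13, NA10 cells carried an engineered NUP98-HOXA10 fusion, and ND13(N51S) cells carried the ND13 fusion with a homeodomain mutation that removes DNA binding. The GFP control carried the empty MIG vector. All 4 vectors expressed GFP, all 4 groups saw the same drug and growth factors, and the reported purity of the sort was above 90%. The producer cells were of the same line but made a different virus for each group. Producer cells and group can therefore not be told apart. None of the lineage antibodies that the labels name is directed at fibroblasts.

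A fibroblast secretes collagen chains that assemble into fibres, coats them with fibronectin and small proteoglycans, crosslinks them with lysyl oxidases and remodels them with metalloproteinases, whose activity the TIMP proteins hold in check. Blood stem and progenitor cells live against such a matrix in the marrow but make little of it. The virus producer line GP+E86 derives from mouse NIH 3T3 fibroblasts, so its RNA, RNA of marrow stroma and RNA of the sorted cells carry the same mouse sequences and cannot be told apart by a probe. In a pool of sorted cells, fewer cells of a type and less RNA per cell cannot be told apart either.

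Values are MAS5 signals, a brightness on a linear scale that the authors had brought to a common trimmed mean. For each array the level that 95% of its 27 probe sets for bacterial RNA did not exceed served as background, between 28.5 and 69.8. A pair of arrays stood in doubt. ND13(N51S) replicate 2 had a 3'/5' signal ratio of 48.9 for Gapdh and 9.09 for Actb, against at most 2.71 in each of the others, which is a measure of RNA degradation or short cDNA. The experiment record of GFP control replicate 1 names GFP- cells of the mutant culture, whereas its label names the GFP control, and the label was followed.

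Most of the fibroblast and matrix genes gave a weak but measurable signal in all groups, and none was called as different in any comparison. In all 12 arrays, 17 of the 37 genes lay above background, 27 did so in 9 or more arrays, 9 in 1 to 8 arrays and 1 (Cnn1) in none. The number above background was 28 to 34 in the GFP control arrays, 24 to 30 in ND13, 30 to 33 in NA10 and 29 to 32 in ND13(N51S). The 24 came from ND13 replicate 3, the array with the highest background (69.8). In it 14446 of all 22626 probe sets lay above background, against 15719 to 17695 in the other arrays. Of the chains of type I and III collagen, by which a fibroblast is usually recognised, Col1a2 was above background in 12 of 12 arrays, Col3a1 in 6 of 12 and Col1a1 in 5 of 12.

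**Figure D1:**
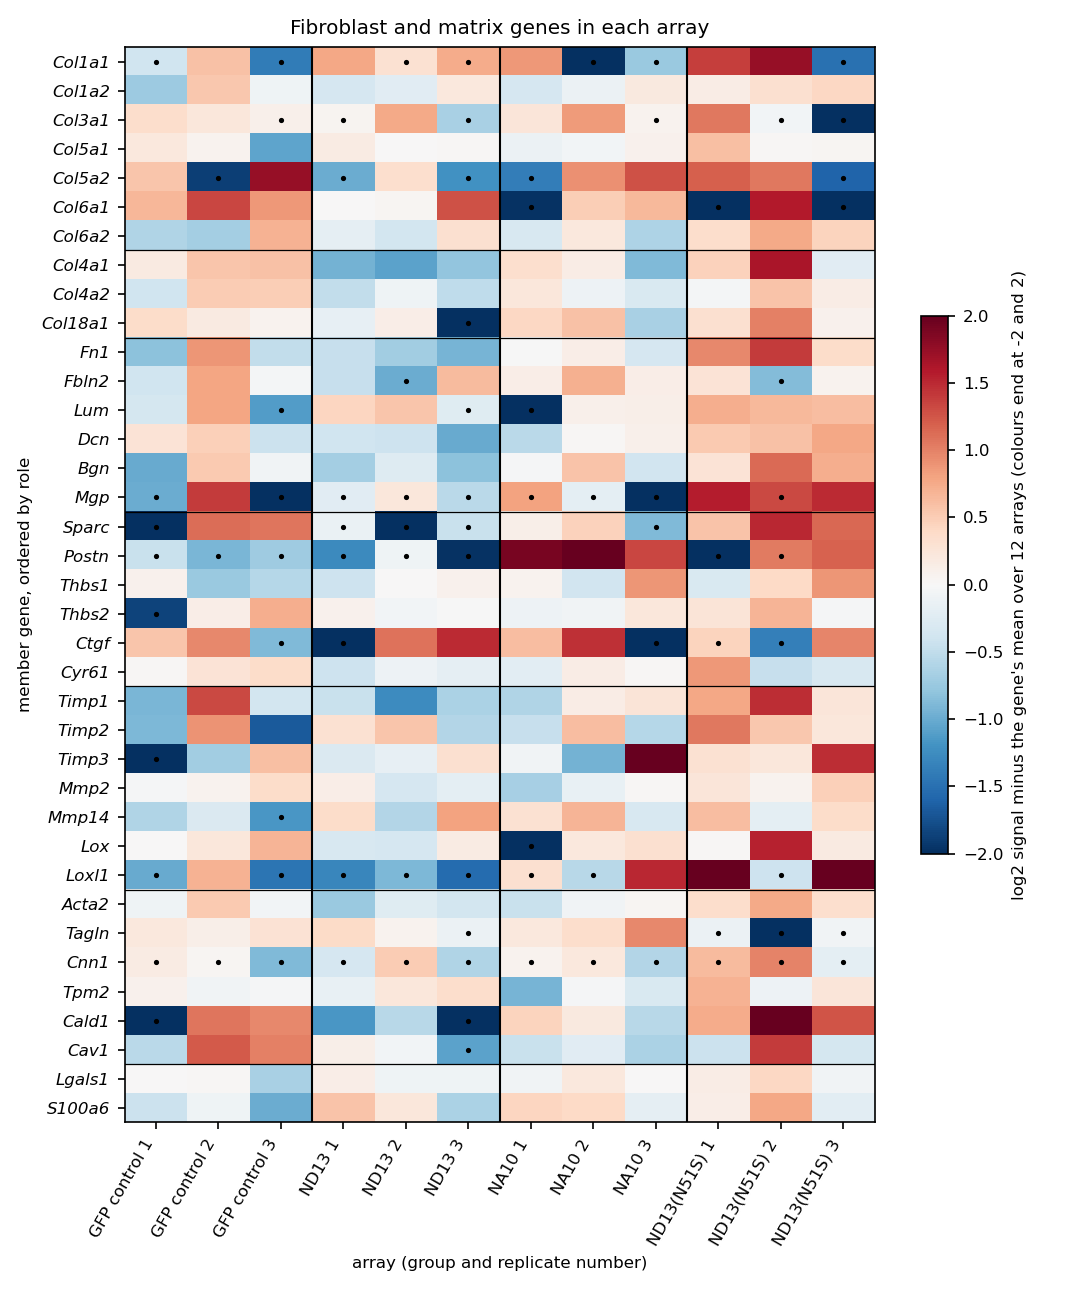
Log2 signal of the 37 genes (rows, by role) in 12 arrays (columns), as the difference from each gene's mean over the arrays. Black dots mark values at or below the background of the array. Red tiles crowd the column of ND13(N51S) replicate 2, and blue tiles those of GFP control replicate 1 and of ND13. The median over the genes was lowest in GFP control replicate 1 (-0.40), against -0.29, -0.08 and -0.36 in ND13 replicates 1, 2 and 3. The dots show that the strongest colours of Col1a1, Col6a1, Mgp and Postn include values below background.

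Summed over the genes, signal was dominated by Lgals1 and S100a6. Without these, the other 35 genes summed to 3518, 6355 and 4801 in GFP control replicates 1, 2 and 3, to 3621, 3871 and 3663 in ND13, to 4033, 5105 and 4633 in NA10, and to 6308, 8975 and 5879 in ND13(N51S). All 3 ND13 arrays lay within a narrow range and below every NA10 array, and both fusions lay below every ND13(N51S) array. The GFP control spanned the sums of ND13 and NA10, and its replicate 2 exceeded 2 of the 3 ND13(N51S) arrays. The group means were 4891 ± 1421 (SD, n = 3), 3718 ± 134, 4590.5 ± 538 and 7054 ± 1677, in the same order. In each of the 4 groups replicate 2 had the highest sum. These sums weigh bright probe sets most and were not tested.

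**Figure D2:**
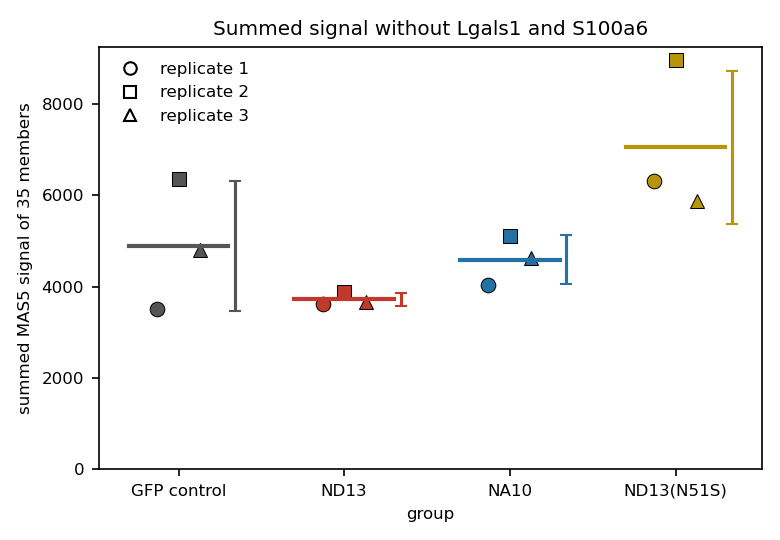
Summed MAS5 signal of 35 genes (all but Lgals1 and S100a6) for each array, by group, with circles, squares and triangles for replicates 1, 2 and 3. Horizontal lines are group means and bars 1 SD. The 3 ND13 arrays sit between 3621 and 3871 and the 3 ND13(N51S) arrays between 5879 and 8975.

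The comparison of each group with the others asked whether any matrix gene followed the active fusions. By limma with Benjamini-Hochberg adjustment over 22626 probe sets, where a call needed an adjusted p under 0.05 and a 1.5-fold difference, 0 of the 37 genes were called in each of the 6 comparisons. Over all probe sets the share called was 0.0884% for ND13 against the GFP control, 0.0133% for NA10 against the GFP control, 0% for ND13(N51S) against the GFP control, 0.0133% for ND13 against ND13(N51S), 0.00884% for NA10 against ND13(N51S) and 0.0177% for ND13 against NA10. At an unadjusted p under 0.05 with a 1.5-fold difference, 2, 1, 4, 10, 6 and 1 of the 37 genes passed in the same order. The share of all probe sets past that threshold is given below with the genes of each comparison. The methods' t-test, adjusted in the same way, called 0 genes in each comparison. With the replicate number as a block the count was also 0 throughout, where 0.296%, 0.0398%, 0.0265%, 0.0796%, 0.0442% and 0.0398% of all probe sets were called in the same order.

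The directions were not even. Against ND13(N51S), 32 of the 37 genes were lower by value in ND13 and 31 of 37 were lower in NA10, with median log2 differences of -0.55 and -0.52, beside medians of -0.06 and -0.08 over all probe sets. Other marker and pathway lists had medians of similar size. For ND13 they ran from -0.58 (erythroid) and -0.52 (endothelial) to 0.08 (collagen synthesis and processing). For NA10 they ran from -0.82 (macrophage and monocyte) and -0.64 (erythroid) to 0.15 (collagen synthesis and processing). Against the GFP control, 30 of 37 were higher by value in ND13(N51S), with a median of 0.52 (0.07 over all probe sets). ND13 was lower than the GFP control by value for 23 of 37 (median -0.27, and 0.00 over all probe sets), and this median was -0.05 without GFP control replicate 2. NA10 against the GFP control was divided, with 20 of 37 higher and a median of 0.07 (-0.01 over all probe sets). ND13 was lower than NA10 for 25 of 37, with a median of -0.22 (0.01 over all probe sets). These comparisons share arrays, and the genes vary together, so the counts of direction are not independent of each other.

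Both arrays in doubt bear on these values. Without GFP control replicate 1, which had the lowest sum of its group, the median of NA10 against the GFP control was -0.25 in place of 0.07. With both arrays left out, the median of ND13(N51S) against the GFP control was 0.15 with 24 of 37 genes higher, against 0.52 and 30 with them. The medians against ND13(N51S) without both arrays were -0.44 for ND13, with 31 of 37 lower, and -0.37 for NA10, with 29 of 37 lower.

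The largest number of genes past the unadjusted threshold together with a 1.5-fold difference came from ND13 against ND13(N51S). There 10 of 37 genes were lower by value in ND13, where 3.78% of all probe sets were, and 0 were higher. They were Col4a1, Col18a1, Fn1, Dcn, Bgn, Sparc, Timp1, Loxl1, Acta2 and Cald1. Without both arrays in doubt 9 of 37 were lower (3.61% of all probe sets), and Col18a1 was no longer among them. In that setting 1 of 37 was higher, Col6a1, whose remaining ND13(N51S) values lay below background. No share over all probe sets is given for that side. In 13 genes all 3 ND13 arrays lay below all 3 ND13(N51S) arrays, which held for 8.04% of all probe sets. With 1 array left out the number lower was 8 to 10.

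In other comparisons the number past the same threshold moved more. With the replicate block it was 7 of 37 higher (5.13% of all probe sets) and 1 lower (3.37%) for ND13(N51S) against the GFP control, in place of 4 and 0. The 7 were Fn1, Bgn, Mgp, Timp2, Timp3, Cald1 and S100a6, Loxl1 was no longer among them, and Col6a1 was lower. For NA10 against the GFP control 3 of 37 were higher with the block (3.05% of all probe sets), which were Postn, Timp3 and S100a6. For NA10 against ND13(N51S) 6 were lower (5.56% of all probe sets), with Bgn, Mgp and Lox in place of Tpm2, for ND13 against the GFP control 3 were lower (1.96%), with Col18a1 added, and for ND13 against NA10 2 were lower (1.66%), with Bgn added. In the fit without the block, the number higher in ND13(N51S) than in the GFP control was 1 without GFP control replicate 1 (Thbs1) and 10 without GFP control replicate 2. The number lower in NA10 than in ND13(N51S) was 2 without NA10 replicate 1 or ND13(N51S) replicate 1, and 8 without NA10 replicate 2, and the number higher was 0 to 2 with 1 array left out. For NA10 against the GFP control 3 were higher without GFP control replicate 2 or NA10 replicate 3, and for ND13 against NA10 3 were lower without ND13(N51S) replicate 2. Counts with 1 array left out show how far the number moved. Where no share over all probe sets stands beside them, they cannot be set against the whole array. Unless the block or an array left out is named, later statements on this threshold refer to the fit without the block and with all arrays.

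**Figure D3:**
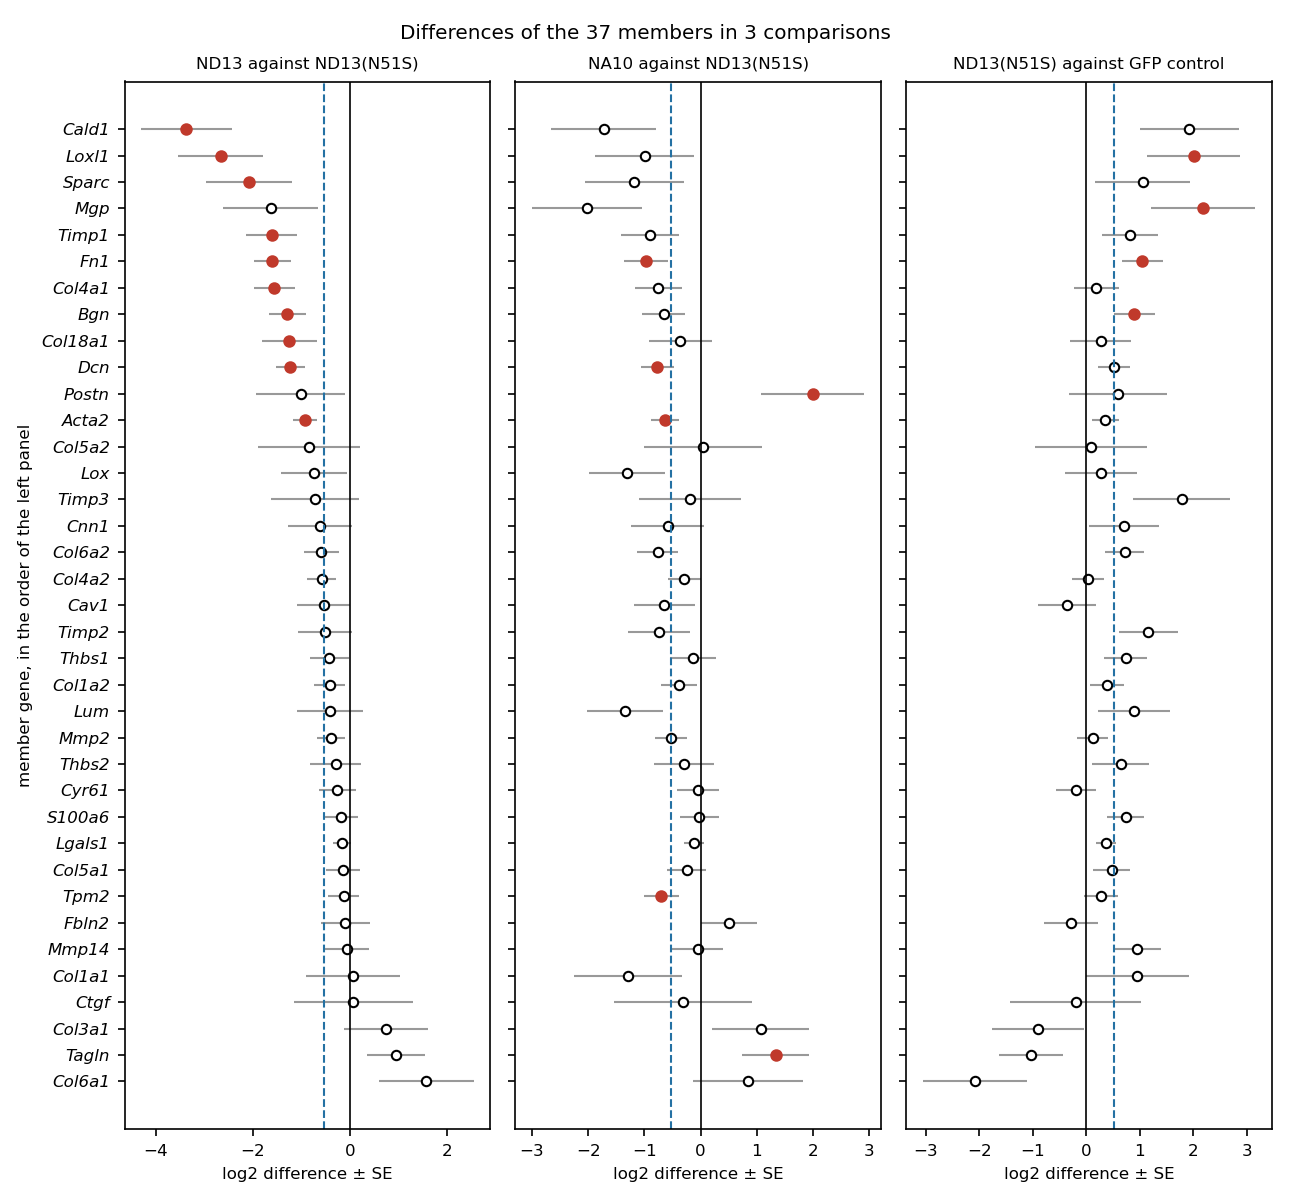
Log2 differences with SE (horizontal bars) of the 37 genes in 3 comparisons, n = 3 arrays in each group. Filled red points have an unadjusted p under 0.05 and at least a 1.5-fold difference, open points do not, and dashed lines mark medians of -0.55, -0.52 and 0.52. No point had an adjusted p under 0.05.

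Among fibrillar collagens and their partners (Col1a1, Col1a2, Col3a1, Col5a1, Col5a2, Col6a1 and Col6a2), none passed the unadjusted threshold with a 1.5-fold difference in any of the 6 comparisons. The second chain of type I collagen, Col1a2, was above background in all arrays, with 106, 255 and 164 in the GFP control, 139, 149 and 202 in ND13, 139, 161 and 201 in NA10 and 195, 219 and 235 in ND13(N51S). All 4 ranges overlapped, and that of the GFP control covered the others. The first chain, Col1a1, measured 23.3, 46.3 and 11.7 in the GFP control, 52.5, 37.9 and 51.8 in ND13, 56.5, 6.08 and 18.4 in NA10 and 80.1, 104 and 10.9 in ND13(N51S). Its highest value came from ND13(N51S) replicate 2, and replicate 3 of that group was below background. As Col1a1 was at or below background in most arrays, its order over the arrays was mostly not measured. Col6a2, a chain of the beaded microfibril collagen, had the highest mean log2 signal of these genes, with 161, 153 and 398 in the GFP control, 216, 191 and 306 in ND13, 196, 284 and 159.7 in NA10 and 312, 416 and 335 in ND13(N51S). ND13 and ND13(N51S) did not overlap, and GFP control replicate 3 lay above the other two of its group. Differences here and in later comparisons are of mean log2 signals ± SE, with n = 3 arrays in each group (log2 difference -0.60 ± 0.36, limma adjusted p = 0.72). Over the 12 arrays, Col3a1 ranged from 4.09 to 69.0, Col5a1 from 58.5 to 185, Col5a2 from 9.16 to 114 and Col6a1 from 10.5 to 208. Of these, Col5a1 was above background in 12 of 12 arrays, Col5a2 in 7 of 12 and Col6a1 in 9 of 12.

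The basement membrane collagens gave the clearest pattern of the collagens. Col4a1 and Col4a2 encode the chains of the type IV network that underlies endothelium and epithelium, and fibroblasts in culture make them too. Col4a1 measured 145, 132 and 162 in ND13, against 315, 410.3 and 420.1 in the GFP control, 354, 309 and 151 in NA10 and 384, 867 and 239 in ND13(N51S). The ND13 arrays were close together and lay below all arrays of the GFP control and of ND13(N51S), while NA10 replicate 3 fell within the ND13 range. Col4a1 was 2.59-fold lower by value in ND13 than in the GFP control (log2 difference -1.38 ± 0.42, limma adjusted p = 0.50) and 2.95-fold lower than in ND13(N51S) (log2 difference -1.56 ± 0.42, limma adjusted p = 0.36). Its second probe set gave -1.49 for the latter. Without ND13(N51S) replicate 2, whose 867 was the highest value of the gene, the difference from ND13(N51S) was -1.05.

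Col4a2 measured 165, 309.7 and 305 in the GFP control, 155, 205 and 154 in ND13, 254, 203 and 176 in NA10 and 211, 324 and 241 in ND13(N51S), so that ND13 lay just below ND13(N51S) with a difference of -0.59. Both genes lie head to head on mouse chromosome 8, transcribed away from each other. In the RefSeq promoter table (GRCm38.p6) Col4a1 starts at position 11312826 on the minus strand and Col4a2 at 11312805 on the plus strand, with 22 bases in common. Their log2 signals correlated at r = 0.77 over the 12 arrays, and at 0.57 with group means removed. Col18a1, which carries endostatin at its end, was 137, 120.1 and 112 in the GFP control, 95.5, 117 and 21.2 in ND13, 141, 159 and 67.8 in NA10 and 133, 215 and 113 in ND13(N51S). ND13 replicate 3 was the low array of the gene, and the ranges of ND13 and ND13(N51S) overlapped. It had a log2 difference of -1.25, but its second probe set gave 0.11, in the opposite direction.

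Fibronectin and the small proteoglycans included the smallest adjusted p-values of the list. Fibronectin (Fn1), the adhesive protein on which collagen is laid down, measured 214, 696 and 267 in the GFP control, 275, 232 and 199 in ND13, 374, 412 and 299 in NA10 and 732, 988 and 486 in ND13(N51S). Every ND13 array lay below every NA10 array, and every NA10 array below every ND13(N51S) array, but the GFP control ran from the ND13 range to within the ND13(N51S) range. Fn1 was 3.03-fold lower by value in ND13 than in ND13(N51S) (log2 difference -1.60 ± 0.39, limma adjusted p = 0.28) and 1.97-fold lower in NA10 (log2 difference -0.98 ± 0.39, limma adjusted p = 0.52). For ND13(N51S) against the GFP control it was 2.07-fold higher by value (log2 difference 1.05 ± 0.39, limma adjusted p = 0.60). With the replicate block and without both arrays in doubt, a setting chosen after seeing the data, Fn1 was the only one of the 37 called for ND13 against ND13(N51S), with an adjusted p of 0.040, where 0.265% of all probe sets were called. Over the other settings its adjusted p was up to 0.95.

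Decorin (Dcn), which binds collagen fibrils and growth factors of the TGF-beta family, was 179, 178 and 118 in ND13 and 340.0, 355 and 403 in ND13(N51S). The GFP control measured 286, 329.6 and 176 and NA10 162, 240.0 and 252. All 3 ND13(N51S) arrays exceeded all arrays of the other groups, although the nearest, GFP control replicate 2, differed by little. The difference of ND13 from ND13(N51S) was 2.35-fold (log2 difference -1.23 ± 0.29, limma adjusted p = 0.27), and that of NA10 from ND13(N51S) 1.71-fold (log2 difference -0.77 ± 0.29, limma adjusted p = 0.50). Dcn was 1 of 2 genes, with Col4a1, that passed the unadjusted threshold with a 1.5-fold lower value in ND13 than in the GFP control, 2 of 37 where 1.5% of all probe sets did.

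Biglycan (Bgn), the closest relative of decorin, measured 147, 426 and 282 in the GFP control, 185, 248 and 169 in ND13, 292, 439 and 229 in NA10 and 359, 649 and 492 in ND13(N51S). Again ND13 lay below ND13(N51S) without overlap (log2 difference -1.30 ± 0.38, limma adjusted p = 0.41), and replicate 2 was the highest of its group in all 4 groups. The other probe sets of Bgn gave differences of -1.08 and -2.69. Lumican (Lum) and the calcification inhibitor Mgp also lay higher in all 3 ND13(N51S) arrays than in all arrays of ND13 and NA10. Lum ranged from 10.2 to 84.3 over the 12 arrays. Mgp measured 57.8, 48.4 and 54.7 in ND13(N51S), close to background, with replicate 2 below it. It was 16.6, 22.8 and 13.4 in ND13 and 34.1, 17.0 and 3.95 in NA10, all below background. The GFP control gave 9.81, 51.1 and 3.28 for Mgp, with only replicate 2 above background. With values below background set to background, Mgp was 1.385-fold higher in ND13(N51S) than in the GFP control. Fibulin-2 (Fbln2), an elastic fibre protein, ranged from 36.9 to 126 and did not pass the unadjusted threshold with a 1.5-fold difference in any comparison. For ND13(N51S) against the GFP control, Fn1, Bgn, Mgp and Loxl1 made up the 4 of 37 genes past the unadjusted threshold with a higher value, where 4.37% of all probe sets were. Without both arrays in doubt 2 of 37 were higher (4.36% of all probe sets), and these were Mmp14 and Loxl1. In that setting 2 of 37 were lower, Col6a1 and Cav1, and no share over all probe sets is given for that side. The log2 difference of Fn1 was then 0.47 and that of Bgn 0.28, in place of 1.05 and 0.90, and that of Bgn was 0.49 without GFP control replicate 1 alone. The groups did not overlap for Dcn and Mmp14, 2 of 37, where 8.5% of all probe sets were higher without overlap.

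**Figure D4:**
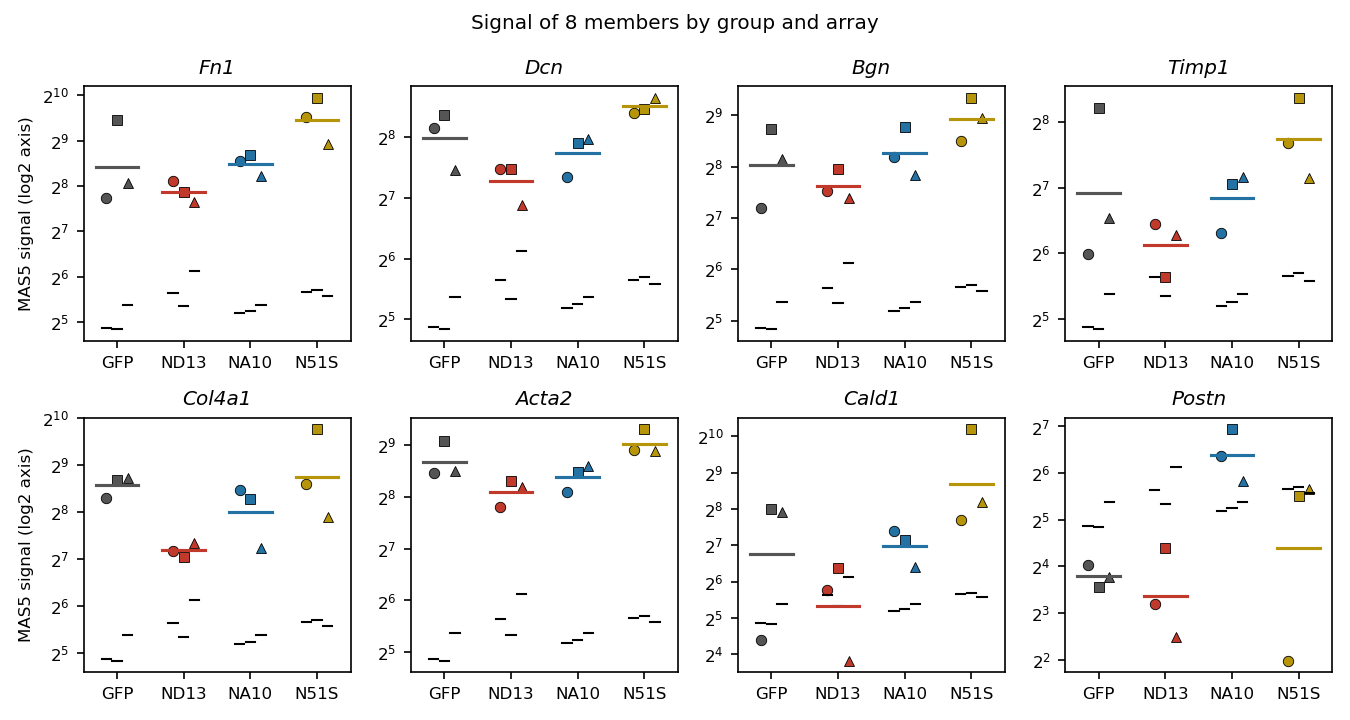
MAS5 signal on log2 axes for 8 genes, by group (GFP, GFP control; N51S, ND13(N51S)), with circles, squares and triangles for replicates 1, 2 and 3, coloured lines at the mean of the log2 values and black dashes at the background of each array. ND13 lies below ND13(N51S) in all arrays of Fn1, Dcn, Bgn, Timp1, Col4a1, Acta2 and Cald1, and Postn exceeds background in all 3 NA10 arrays.

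The matricellular proteins, which sit in the matrix and signal to cells, showed one gene that did not follow the rest. Periostin (Postn), a protein of periosteum and healing tissue, measured 82.9, 123 and 56.7 in NA10. It was 16.5, 11.8 and 13.7 in the GFP control and 9.21, 21.1 and 5.64 in ND13, all below background, and 3.93, 45.7 and 50.8 in ND13(N51S). NA10 was thus the only group with Postn above background in all 3 arrays, and ND13(N51S) replicate 3 was just above it. The NA10 signal was at least 2.56-fold higher than the GFP control (log2 difference 2.59 ± 0.92, limma adjusted p = 0.9950) and at least 1.6-fold higher than ND13 (adjusted p = 0.9998), where a value below background counts as background. Postn was the 1 of 37 genes past the unadjusted threshold for NA10 against the GFP control (2.51% of all probe sets) and for ND13 against NA10 (1.34% of all probe sets). It was higher by value than ND13(N51S) as well, which, with the contractile gene Tagln, made 2 of 37 where 2.94% of all probe sets were higher.

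Sparc (osteonectin), which binds collagen and which megakaryocytes also store, was 34.1, 7.04 and 27.5 in ND13, all below background, and 55.7, 107 and 82.5 in ND13(N51S), all above. ND13(N51S) was at least 1.51-fold higher than ND13 (log2 difference -2.07 ± 0.88, limma adjusted p = 0.60). The GFP control measured 8.63, 80.9 and 78.9, so that replicate 1 lay apart from the other two. Thrombospondins Thbs1 and Thbs2 and the YAP target genes Ctgf and Cyr61 passed the unadjusted threshold with a 1.5-fold difference in none of the 6 comparisons. Thbs1 had the highest mean log2 signal of the matricellular genes, with 133, 74.9 and 84.0 in the GFP control, 93.5, 126 and 133 in ND13, 131, 95.8 and 231 in NA10 and 101, 164 and 232 in ND13(N51S), and all 4 ranges overlapped. Over the 12 arrays Thbs2 ranged from 23.5 to 139.6, Ctgf from 3.66 to 81.3 and Cyr61 from 67.8 to 171.

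Of the genes that turn matrix over, Timp1 and Loxl1 passed the unadjusted threshold with a 1.5-fold difference. Timp1, a secreted inhibitor of metalloproteinases, measured 63.3, 298 and 92.9 in the GFP control, 87.4, 49.9 and 77.5 in ND13, 78.8, 133 and 143 in NA10 and 205, 332 and 142 in ND13(N51S). ND13 and ND13(N51S) did not overlap, and GFP control replicate 2 was again far above the other two of its group. The difference of ND13 from ND13(N51S) was 3.06-fold (log2 difference -1.61 ± 0.52, limma adjusted p = 0.48). Loxl1, which crosslinks elastin, was 142, 19.5 and 122 in ND13(N51S) and 10.6, 14.0 and 8.97 in ND13, and here ND13(N51S) replicate 2 was the low array of its group, below background. The GFP control gave 13.0, 42.2 and 9.52 and NA10 32.6, 17.7 and 73.8. Loxl1 was at least 1.34-fold higher in ND13(N51S) than in ND13 (log2 difference -2.67 ± 0.87, limma adjusted p = 0.50).

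Timp2, Timp3, Lox and the metalloproteinases Mmp2 and Mmp14 did not pass the unadjusted threshold with a 1.5-fold difference in any comparison. Timp2 had the highest mean log2 signal of these enzymes and inhibitors, with 156, 542 and 91.1 in the GFP control, 359, 426 and 194 in ND13, 210.2, 448 and 196 in NA10 and 601, 421 and 341 in ND13(N51S). Lox ranged from 14.7 to 281 and Mmp2 from 82.8 to 182. Timp3 ranged from 11.4 in GFP control replicate 1 to 588 in NA10 replicate 3, and replicate 3 was its highest array in all 4 groups. Its log2 difference of ND13(N51S) from the GFP control was 1.78 ± 0.90 (limma adjusted p = 0.69), with overlapping ranges. Mmp14, the membrane-bound activator of Mmp2, was 53.2, 66.2 and 36.1 in the GFP control and 124, 70.9 and 104 in ND13(N51S), without overlap (log2 difference 0.95 ± 0.45, limma adjusted p = 0.66).

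Of the contractile genes, which mark myofibroblasts and smooth muscle, Acta2 and Cald1 followed Fn1, while Tagln and Cnn1 did not. Smooth muscle actin (Acta2) measured 352, 539.8 and 360.1 in the GFP control, 223, 316 and 291 in ND13, 274, 358 and 385 in NA10 and 478, 634 and 471 in ND13(N51S). All 3 ND13(N51S) arrays exceeded all ND13 and NA10 arrays, and ND13 lay below the GFP control, too. The difference of ND13 from ND13(N51S) was 1.91-fold (log2 difference -0.93 ± 0.25, limma adjusted p = 0.36) and that of NA10 1.56-fold (log2 difference -0.64 ± 0.25, limma adjusted p = 0.52). The second probe set of Acta2, with a mean signal of 20.2 over the arrays, gave differences of 0.36 and 0.32, in the opposite direction.

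Caldesmon (Cald1), which binds actin and myosin, measured 20.9, 257 and 240.1 in the GFP control, 54.9, 83.6 and 14.1 in ND13, 168, 141 and 84.0 in NA10 and 206, 1176 and 294 in ND13(N51S). ND13(N51S) replicate 2 was several times above the other arrays of its group, and GFP control replicate 1 and ND13 replicate 3 were below background. Cald1 was 10.3-fold lower by value in ND13 than in ND13(N51S) (log2 difference -3.37 ± 0.93, limma adjusted p = 0.36), and its other probe sets gave -1.13 and -2.40. With the value of ND13 replicate 3 set to its background the difference was 6.05-fold. Without ND13(N51S) replicate 2 the log2 difference was -2.61. Fn1, Dcn, Acta2 and Tpm2 made up the 4 of 37 genes lower by value in NA10 than in ND13(N51S) past the unadjusted threshold, where 4.85% of all probe sets were lower. Without both arrays in doubt 3 of 37 were lower (4.83% of all probe sets), and these were Dcn, Loxl1 and Tpm2. In that setting 2 of 37 were higher, Col6a1 and Postn, and no share over all probe sets is given for that side. In 9 of 37 genes all NA10 arrays lay below all ND13(N51S) arrays, where 9.4% of all probe sets did.

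As the RefSeq promoter table covers some of the genes that varied together, the 250 bases before their start sites were searched on both strands for letters bound by factors that act on fibroblast genes. These were GGAATG, the core bound by TEAD factors, the partners of YAP, the sequence TGANTCA bound by AP-1, and the CArG box of serum response factor. The CArG box was searched only in its strict form CCWWWWWWGG, where W is A or T. The table held 29 start sites of 24 of the 37 genes, and 13 genes were not in it. GGAATG was present in 7 of the 29 windows (24.1%), against 12.6% of 32851 windows of all genes, TGANTCA in 2 (6.90% against 6.75%), and the strict CArG box in 0 (against 1.47%). Looser forms with a C or G in the core were not counted. The Acta2 window below holds such forms, ccctatatgg and ccttgtttgg. A match is a run of letters and not a bound site. The windows with a match from Timp1, Acta2 and Cald1 are shown because these 3 genes lay lower in every ND13 array than in every ND13(N51S) array and passed the unadjusted threshold there. Col6a2 also had a GGAATG match and groups that did not overlap, but did not pass. They run 5' to 3' on the strand of the gene, with the match in capitals: chrX:20869916-20870165 (plus strand), chr19:34255374-34255623 (minus strand), and for Cald1 chr6:34598254-34598503 and chr6:34709194-34709443 (both plus strand, upstream and downstream start), all in GRCm38.p6.
Timp1: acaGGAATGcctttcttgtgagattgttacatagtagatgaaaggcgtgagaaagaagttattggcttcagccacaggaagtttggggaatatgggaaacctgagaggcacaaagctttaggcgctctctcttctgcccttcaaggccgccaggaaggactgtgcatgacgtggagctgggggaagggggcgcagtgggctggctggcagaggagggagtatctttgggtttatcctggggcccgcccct
Acta2: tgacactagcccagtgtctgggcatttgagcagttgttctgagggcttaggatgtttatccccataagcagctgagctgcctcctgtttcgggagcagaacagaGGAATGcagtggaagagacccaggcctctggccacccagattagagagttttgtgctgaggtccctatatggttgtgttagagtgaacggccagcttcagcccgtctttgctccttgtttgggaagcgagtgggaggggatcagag
Cald1 upstream start: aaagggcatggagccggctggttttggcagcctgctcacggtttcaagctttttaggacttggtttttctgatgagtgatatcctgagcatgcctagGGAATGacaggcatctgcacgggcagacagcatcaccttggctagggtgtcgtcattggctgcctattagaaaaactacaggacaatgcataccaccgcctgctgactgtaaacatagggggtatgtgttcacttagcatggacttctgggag
Cald1 downstream start: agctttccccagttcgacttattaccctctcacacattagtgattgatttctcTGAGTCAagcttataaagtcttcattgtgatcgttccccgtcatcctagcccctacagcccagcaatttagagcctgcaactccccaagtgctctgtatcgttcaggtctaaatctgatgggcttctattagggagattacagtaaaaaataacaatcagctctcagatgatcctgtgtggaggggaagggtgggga
The capitals are GGAATG in the first 3 windows and TGAGTCA, a match to TGANTCA, in the downstream window of Cald1. Beginning from the 5' end of the window, GGAATG started at base 4 in Timp1, 105 in Acta2 and 98 in Cald1. Which of the start sites was used in these cells cannot be read from these probe sets.

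Transgelin (Tagln), a marker of contractile cells, lay near background everywhere, with 53.9, 58.9 and 90.5 in NA10 and 42.7, 9.47 and 44.3 in ND13(N51S), of which the last 3 were all below background. The GFP control gave 53.5, 49.996 and 56.7 and ND13 60.2, 48.6 and 42.7. NA10 was at least 1.32-fold higher (log2 difference 1.33 ± 0.60, limma adjusted p = 0.56). Calponin (Cnn1) did not exceed background in any array, with a range from 6.98 to 25.4. Tropomyosin (Tpm2), which lies along actin filaments, measured 142, 128 and 133 in the GFP control, 121, 156 and 172 in ND13, 70.3, 133 and 109 in NA10 and 217, 125 and 159.6 in ND13(N51S). The ranges of NA10 and ND13(N51S) overlapped (log2 difference -0.70 ± 0.32, limma adjusted p = 0.57). Caveolin (Cav1), a coat protein of membrane pits, was 91.8, 313 and 269 in the GFP control, 144, 128 and 63.2 in ND13, 97.5, 114 and 85.9 in NA10 and 98.9, 351 and 105 in ND13(N51S). GFP control replicates 2 and 3 and ND13(N51S) replicate 2 stood above all the rest.

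For ND13 against the GFP control the count moved most with 1 array. Without GFP control replicate 1, 9 of the 37 genes passed the unadjusted threshold with a 1.5-fold lower value in ND13, where 1.49% of all probe sets did, in place of 2 with it. The number was 1 without GFP control replicate 2 or ND13 replicate 3. They were Col4a1, Col4a2, Fn1, Bgn, Sparc, Timp1, Acta2, Cald1 and Cav1, and Dcn was no longer among them. For Cald1 the log2 difference was then -2.63 (limma adjusted p = 0.57) and for Col4a1 -1.51 (limma adjusted p = 0.63), with n = 2 GFP control arrays. None was called after adjustment. Whether the cell fraction named in the record of that array has a part in this was not tested.

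Lgals1 and S100a6 are made by many cell types, blood cells included, and gave most of the summed signal of the list. Galectin-1 (Lgals1) measured 10913, 11129 and 6929 in the GFP control, 11946, 10288 and 10306 in ND13, 10334, 12626 and 11003 in NA10 and 12067, 14527 and 10429.7 in ND13(N51S), and these ranges overlapped apart from the low replicate 3 of the GFP control. S100a6, a calcium binding protein of growing cells, was 944, 1192 and 635 in the GFP control, 1879, 1486 and 819 in ND13, 1704, 1667 and 1118 in NA10 and 1397, 2179 and 1096 in ND13(N51S). In all 4 groups replicate 3 was the lowest array.

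The replicate number in the labels was followed by 1 of the genes. In a limma F test of the replicate number with the groups in the model, where a call needed an adjusted p under 0.05 alone, S100a6 was the 1 of the 37 genes called (adjusted p = 0.022), and 5.22% of all probe sets were called. The log2 difference of replicate 3 was -0.83 from replicate 2 and -0.68 from replicate 1. The count was 0 when 1 array was left out that was GFP control replicate 2 or 3, ND13 replicate 3, NA10 replicate 1 or 3, or ND13(N51S) replicate 3, and 2 without ND13(N51S) replicate 2. At an unadjusted p under 0.05, 8 of 37 genes passed (Col18a1, Fn1, Bgn, Timp2, Timp3, Acta2, Lgals1 and S100a6), where 20.7% of all probe sets did. The labels do not say what a number stands for, and the sum without Lgals1 and S100a6 was 6077 on average in replicates numbered 2, against 4370 and 4744 in those numbered 1 and 3.

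Several of these genes went up and down together from array to array. Among the 27 genes above background in at least 9 arrays, 77 of 351 pairs correlated at r over 0.5 on the log2 scale, with a median r of 0.19 over all pairs. These were 21.9% of the pairs, against 9.47% of the pairs among 8858 other genes with the same detection, and 1 pair lay under -0.5 (0.285% against 8.35%). With group means removed 64 pairs lay over 0.5 (18.2% against 13.6%) and 15 under -0.5 (4.27% against 12.8%). Without ND13(N51S) replicate 2 it was 65 over and 4 under. The tightest pairs were Bgn and Cald1 (r = 0.92, Spearman's rho 0.90, n = 12 arrays), Fn1 and Timp1 (r = 0.91, rho 0.88), Fn1 and Bgn (r = 0.88, rho 0.87) and Col4a2 and Cald1 (r = 0.87, rho 0.92). Left without the 2 arrays farthest from the median of the first gene, r was 0.84, 0.86, 0.87 and 0.83. The arrays share their scaling, background and group structure, so these values describe the 12 arrays and carry no p.

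Markers of fibroblast identity outside the list gave an uneven picture. Of 17 measured, 6 were above background in all 12 arrays: Vim, S100a4 and Thy1, which blood cells also make, and Pdgfrb, Twist2 and the collagen chaperone Serpinh1. Pdgfra, a defining receptor of fibroblasts, was above background in 5 arrays and the transcription factor Twist1 in none. No gene of this list was called in any comparison, and Axl passed the unadjusted threshold with a lower value in ND13 than in the GFP control and than in ND13(N51S). Their summed signal was 12214 to 13047 in the GFP control, 11968 to 15461 in ND13, 12137 to 13955 in NA10 and 12567 to 16853 in ND13(N51S). Of 11 marrow stroma and osteoblast genes, 4 were above background in all arrays (Lepr, Kitl, Ebf3 and Sp7) and Adipoq in none. Their sums were 769 to 877, 662 to 846, 731 to 977 and 859 to 1104 in the same order of groups.

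Markers of some blood cells differed by value between the groups. Of 12 macrophage and monocyte genes, 6 were higher by value in ND13(N51S) than in the GFP control past the unadjusted threshold (Csf1r, Adgre1, Mrc1, C1qb, Fcgr3 and Itgam; 4.37% of all probe sets were), with a median log2 difference of 1.12 over the 12. In ND13 4 were higher than in the GFP control (Csf1r, Cd68, Adgre1 and Mrc1; 3.43% of all probe sets), with a median of 1.003, and in NA10 4 (Cd68, Adgre1, Mrc1 and C1qb; 2.51% of all probe sets), with a median of 0.55. Of 9 megakaryocyte and platelet genes, Pf4 was higher than in the GFP control past the unadjusted threshold in all 3 other groups, and Ppbp and Gp5 in ND13(N51S). The macrophage and monocyte genes summed to 5036 to 9678 in the GFP control, 8666 to 12716 in ND13, 6602 to 7599 in NA10 and 7778 to 18534 in ND13(N51S). Of these genes, C1qa was above background in 1 array. With the replicate block Adgre1 (F4/80) was called for ND13 against the GFP control (adjusted p = 0.043), where 0.274% of all probe sets were called as higher. Macrophages also make Fn1 and Timp1. The 5 erythroid genes summed to 453 to 506, 398 to 482, 307 to 531 and 627 to 767, so that every ND13(N51S) array was above all others, while Alas2 did not exceed background in any array. The mean of the log2 signals of the 5 erythroid genes, each centred on its own mean, was set beside the mean profile of the matrix genes. These correlated at r = 0.72 over the 12 arrays and 0.55 without ND13(N51S) replicate 2. Over the 12 arrays this was the highest r of all marker and pathway lists. The others ran from -0.13 (stem and progenitor) to 0.58 (other matrix proteins, described below). The r was 0.48 for fibroblast identity and 0.10 for the macrophage and monocyte genes. The part of other cell types in the differences of the matrix genes was not tested.

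Genes that act around the matrix were counted in the same way. For ND13 against ND13(N51S) 3.78% of all probe sets were lower past the unadjusted threshold and 3.2% higher. Of 17 measured genes of collagen synthesis and processing, 12 were above background in all arrays, and P3h1 and P4ha2 were lower by value in this comparison, but P4ha2 was above background in 0 arrays, so that its difference was not measured. Of 14 matrix receptors, 2 were lower (the fibronectin receptor chain Itga5, and Cd44). The SRF and YAP target genes (18 measured) had 3 higher (Flna, Tpm4 and Crim1) and 1 lower (Axl), and the TGF-beta pathway (16 measured) 1 lower (Smad6). Of 33 other matrix proteins, 10 were above background in all arrays, and 4 were lower (Lamc1, Nid2, Fbn2 and Vcan) and 2 higher (Emilin1 and Mmp13), with a median of -0.48. Between NA10 and ND13(N51S) 7 of the 33 were lower (Col11a1, Lama4, Lamc1, Hspg2, Fbn2, Adamts1 and Adamts5; 4.85% of all probe sets) and 1 higher (Emilin1; 2.94%), with a median of -0.44. Nid2 was above background in 1 array and Fbn2 in 2. None of the genes on these lists was called without the block. With the block, Tpm4, Tgfbi and Nov were called as higher in ND13 than in the GFP control, by the same rule and beside the same share of all probe sets as Adgre1.

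The array profile of the 27 genes, averaged on the log2 scale, was most like that of Nudt7, a peroxisomal hydrolase (r = 0.93 over 12 arrays among 8858 genes compared, 0.88 without ND13(N51S) replicate 2). Akr1b10, an aldose reductase relative (r = 0.90), and Ctdspl, a phosphatase (r = 0.87), came next. Of the 10 most alike genes, Cpe, a carboxypeptidase of secretory granules, was last with r = 0.85. The likeness was measured after the values were known and is a description of these arrays.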

How the data were processed

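Sorted cells of 12 samples were hybridised to MOE430A arrays. The authors deposited signal intensities, made by MAS5 from the scanned probes per the labels and scaled to a common trimmed mean, and these values were used as they stood. Values from the study's own GC-RMA normalisation were not analysed here. Logarithms to base 2 were taken after setting a floor of 0.01 (0 values lay at or below it). Of 22690 probe sets, 64 controls were left out. Of the 22626 tested, 20380 carried 1 gene, 691 several and 1555 none, and 20351 were matched to a current gene in the reference table, Ctgf and Cyr61 through their present names Ccn2 and Ccn1.

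A single limma model (version 3.58.1, R 4.3.3) of all 4 groups was fitted, with trended and robust eBayes moderation, and p-values were adjusted by Benjamini-Hochberg across the whole array. A call needed an adjusted p under 0.05 and a 1.5-fold difference. The script was tested on simulated data. A bound of the form "at least" sets the values of the lower group, all below background, to background. Values of the higher group stay as measured. Arrays with the same replicate number in the labels deviated together from their group means (r = 0.106 to 0.596 over probe sets above the median mean) and those with different numbers less so (-0.422 to 0.107). Over all probe sets the ranges were 0.031 to 0.156 and -0.105 to 0.025. Arrays of 1 number were taken as paired, and a fit with that number as a block is quoted if a call depends on it. The SEs and p-values of group comparisons come from the fit without the block, except where the block is named. Precision is limited by 3 arrays in each group.

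All genes of the list are named. Values are given by array for those past an unadjusted p under 0.05 with a 1.5-fold difference and for the brightest of each role. The list of genes, the marker lists and the tests were chosen with earlier results of these data known. Alternatives were the unadjusted p, the methods' t-test, a filter on dim probe sets, a pseudocount of 32, quantile normalization, centring on the median, eBayes without trend and robust moderation, 2-group fits, other probe sets of a gene, the replicate block, and each array or both arrays in doubt left out. Figures were made in Python 3.11.15 (matplotlib 3.10.9).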

Additional observations from a re-analysis of the deposited data

How the results depend on the processing

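Depth here means signal over background: 9 of the 37 genes were above it in only 1 to 8 arrays and 1 in none, so their differences were only partly measured. Keeping only probe sets brighter than the median left 14 of the 37 genes with a value. The count of genes called in the 6 comparisons was 0 under the filter, the pseudocount, both other scalings, plain eBayes, fits of 2 groups, the methods' t-test after adjustment, other probe sets and each array left out. The same held for the replicate block, with 0 called in each of the 6 comparisons. The exception was the replicate block without both arrays in doubt, chosen after seeing the data, with 1 gene (Fn1) for ND13 against ND13(N51S). At the unadjusted p with a 1.5-fold difference, 2 genes passed when ND13, 1 when NA10 and 4 when ND13(N51S) was set against the GFP control, 10 for ND13 and 6 for NA10 against the mutant, and 1 for ND13 against NA10. The methods' t-test without adjustment gave 1, 1, 0, 7, 2 and 2 in this order. No share over all probe sets is given for that test, so these counts cannot be set against the whole array.

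The median log2 difference of NA10 against the GFP control was 0.07 and ran from -0.25 to 0.26 with 1 array left out, the lowest without GFP control replicate 1, and was -0.25 without both arrays in doubt. That of ND13(N51S) against the GFP control was 0.52, ran from 0.36 to 0.57 and was 0.15 without both. The other medians kept their sign with each array left out: -0.35 to -0.05 for ND13 against the GFP control, -0.65 to -0.44 and -0.59 to -0.37 for ND13 and NA10 against ND13(N51S), and -0.31 to -0.10 for ND13 against NA10.

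The number of genes called for the replicate number, 1 in the text, was 8 at an unadjusted p, 2 with the pseudocount, 0 with plain eBayes, 2 with the second probe set, 0 to 2 with 1 array left out and 3 without both arrays in doubt. In the group order of the plots (control, ND13, NA10, mutant), means of the summed signal were 15472, 15960, 17408 and 20953 with all 37 genes. They were 9755, 9981, 10954 and 13390.0 with the second probe set of a gene and 4891, 3718, 4590.5 and 7054 without Lgals1 and S100a6, the last chosen after seeing the data. With the mean of all probe sets of a gene they were 12664, 13823 and 16634 in ND13, NA10 and ND13(N51S), and the value of the GFP control is not given for this setting. With 1 array left out the sums ran from 13870 to 17026, 15217 to 16546, 16412 to 18076 and 18588 to 22727. A second probe set reversed the log2 difference of ND13 from ND13(N51S) for Col18a1 (0.11) and Acta2 (0.36), and that of NA10 from ND13(N51S) for Acta2 (0.32). The causes of these changes were not tested.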
